A study of Mus musculus with 16 samples.

Results

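Six2, Six3, Six6 and Irx1 to Irx6 are homeobox genes of the Six-family and Iroquois groups, and their H3K27me3 was followed in mouse embryonic stem cells (mESC). H3K27me3, histone H3 trimethylated at lysine 27, had been measured by chromatin immunoprecipitation and sequencing, together with input chromatin. The members were all consensus peaks that overlapped the mm10 span of 1 of the 9 genes, extended by 2000 bases on either side. This gave 8 peaks of the 102957 in the series, since Six3 and Six2 lie under a single peak. The span alone, or the span with 5000 bases on either side, picked the same 8 peaks.

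The 16 libraries came from 4 lines, each sampled at 0 and 48 h, with 1 H3K27me3 and 1 input library per line and time. The lines were wild type (WT control), wild type carrying an inducible transgene of the long noncoding RNA Firre (WT transgene), Firre knockout (KO control) and Firre knockout carrying that transgene (KO transgene). Doxycycline is the treatment label of all 16 libraries, those at 0 h included, and all cells were kept on gelatin with serum, LIF, PD0325901 and CHIR99021. No label says whether a line is 1 clone, which promoter drives the transgene or whether cultures were grown separately. The p-values below therefore speak of these libraries only, whose spread may be technical. For time, induction and single lines they rest mostly on counting error. H3K27me3 libraries held 10380781 to 14787938 counts within the peaks. Input libraries held 3340654 to 6244333, the smallest being that of KO control at 0 h. At the peak over Firre itself, input of WT control stood at 0.694 of the mean over chromosome X peaks per length (95% counting interval 0.317 to 1.32, from 3 reads at 0 h and 6 at 48 h). WT transgene input stood at 14.9 and KO transgene input at 10.7 times that mean. The line labelled KO control stood at 11.1 (9.11 to 13.4, from 37 and 73 reads). That goes against a label that names a knockout and no transgene, so the line is called the line labelled KO control throughout. Raw H3K27me3 counts at this peak went over 48 h from 263 to 57 in WT transgene and from 172 to 47 in KO transgene. In the line labelled KO control they were 164 and 177, and in WT control 1 and 0. What the line labelled KO control carries was not tested. Of 8 pluripotency genes listed as a check of the cell type, 7 had no H3K27me3 peak, and Esrrb, the exception, had 3, the widest of 44.4 kb. The ratio over input of Esrrb, as defined below, was 1.31 ± 0.0435 (SD, n = 8 conditions), beside 1.38 at Six6, the lowest member.

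H3K27me3 is laid down by Polycomb repressive complex 2 and marks genes that are kept silent. In embryonic stem cells it covers the genes of developmental regulators, homeobox genes above all, many of them at CpG-rich promoters that also carry active marks. Six-family proteins act with Eya cofactors in the eye, forebrain, kidney and muscle, and Iroquois proteins of the TALE homeobox class pattern the nervous system, heart and limbs from gene clusters of 3 members each.

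The start sites of 4 members are shown because they span the range of CpG density among members and because all lie inside the peaks described below. Each sequence runs 5′ to 3′ on the gene's strand, from 250 bases before to 50 after the start in RefSeq's GRCm38.p6 table (mm10), with every CpG dinucleotide in capitals. The windows are chr17:85688205-85688504 (minus strand) for Six2, chr17:85620584-85620883 (plus) for Six3, chr13:73260247-73260546 (plus) for Irx4 and chr8:91801605-91801904 (minus) for Irx3.
Six2: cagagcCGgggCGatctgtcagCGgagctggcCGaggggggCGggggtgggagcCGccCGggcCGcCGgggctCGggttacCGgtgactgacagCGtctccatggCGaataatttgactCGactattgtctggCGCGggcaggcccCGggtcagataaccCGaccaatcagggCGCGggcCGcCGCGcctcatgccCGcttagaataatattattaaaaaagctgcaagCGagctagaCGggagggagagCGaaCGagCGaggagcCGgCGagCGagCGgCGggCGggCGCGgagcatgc
Six3: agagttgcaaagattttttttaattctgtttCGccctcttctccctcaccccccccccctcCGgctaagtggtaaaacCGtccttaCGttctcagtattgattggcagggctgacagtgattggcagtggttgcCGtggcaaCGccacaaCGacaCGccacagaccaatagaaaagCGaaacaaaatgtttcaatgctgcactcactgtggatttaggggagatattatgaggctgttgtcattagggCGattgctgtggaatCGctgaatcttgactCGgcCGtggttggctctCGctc
Irx4: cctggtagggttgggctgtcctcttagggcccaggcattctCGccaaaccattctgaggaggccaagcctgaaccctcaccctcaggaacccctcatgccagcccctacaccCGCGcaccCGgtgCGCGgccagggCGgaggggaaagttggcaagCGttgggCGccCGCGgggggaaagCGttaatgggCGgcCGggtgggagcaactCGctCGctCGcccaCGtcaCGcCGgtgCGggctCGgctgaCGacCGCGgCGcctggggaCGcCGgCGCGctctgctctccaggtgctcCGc
Irx3: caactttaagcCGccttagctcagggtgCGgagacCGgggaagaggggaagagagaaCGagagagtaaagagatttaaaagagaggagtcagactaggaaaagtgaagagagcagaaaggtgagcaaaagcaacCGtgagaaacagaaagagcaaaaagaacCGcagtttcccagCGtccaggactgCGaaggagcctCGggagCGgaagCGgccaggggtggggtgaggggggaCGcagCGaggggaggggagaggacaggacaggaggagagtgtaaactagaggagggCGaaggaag
Six2 held 37 CpG and Irx4 held 31, while Six3 and Irx3 held 14 each. The median over all 27025 promoters of the same length was 7. As many CpG as in Six2 were found in 5.37% of promoters, as many as in Irx4 in 10.3%, and as many as in Six3 or Irx3 in 36.9%. Irx2 held 25 and Six6 held 20. G and C made up 50% (Six3) to 70.7% (Irx4) of the bases, beside a median of 52.7%. The table was matched for 6 of the 9 genes, and Irx1, Irx5 and Irx6 are named only. The counts describe the letters of these windows and were not tested against the mark.

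All 8 peaks were wide, between 25.0 and 130.7 kb, where the median consensus peak was 2356 bases. The peak over Six3, a regulator of forebrain and eye development, and Six2, a regulator of nephron progenitors, ran from chr17:85593728 to 85724467 and was the 6th widest of all. It also covered Six3os1, a long noncoding RNA beside Six3. Six6, which acts in the eye and pituitary, lay under chr12:72916299-72967478 (51.2 kb). In the IrxA cluster, Irx1 lay under chr13:71947476-71990610 (43.1 kb), Irx2 under chr13:72609647-72655467 (45.8 kb) and Irx4, a gene of the heart ventricle, under chr13:73239189-73301480 (62.3 kb). In the IrxB cluster, Irx3 lay under chr8:91788909-91842725 (53.8 kb), Irx5 under chr8:92352447-92384215 (31.8 kb) and Irx6 under chr8:92662177-92687157 (25.0 kb). The Irx5 peak also held the long noncoding RNA Crnde. Coordinates are mm10 as deposited. Every peak covered the whole gene, exons, introns and untranslated regions alike, and went past both of its ends, so the peak was between 3.75 (Irx6) and 17.1 (Irx3) times as long as the gene. The authors' peak caller gave the peaks fold enrichments of 2.50 (Irx3) to 3.14 (Irx5), beside a median of 1.53 over all peaks.

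The level in each condition was taken as the share of H3K27me3 counts in a peak over the share of input counts in it, so 1 is the average over all peaks and not the genomic background. Irx5, which acts in heart conduction and the retina, had ratios of 1.91, 1.91, 2.19 and 2.04 at 0 h and of 1.59, 1.82, 1.78 and 1.74 at 48 h, with the lines in the order WT control, WT transgene, labelled KO control, KO transgene. It was lower at 48 h than at 0 h in each line. The Six3/Six2 peak had ratios of 1.68, 1.87, 1.98 and 1.77 at 0 h and of 1.60, 1.86, 1.80 and 1.79 at 48 h, in the same order of lines. Both WT control values lay below the other 6. Irx1 ranged from 1.51 to 1.93 (median 1.71), Irx6 from 1.37 to 2.18 (median 1.65), Irx2 from 1.43 to 1.76 (median 1.58) and Irx4 from 1.37 to 1.62 (median 1.49). The lowest were Irx3, at 1.33 to 1.56 (median 1.47), and Six6, at 1.26 to 1.51 (median 1.37).

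**Figure D1:**
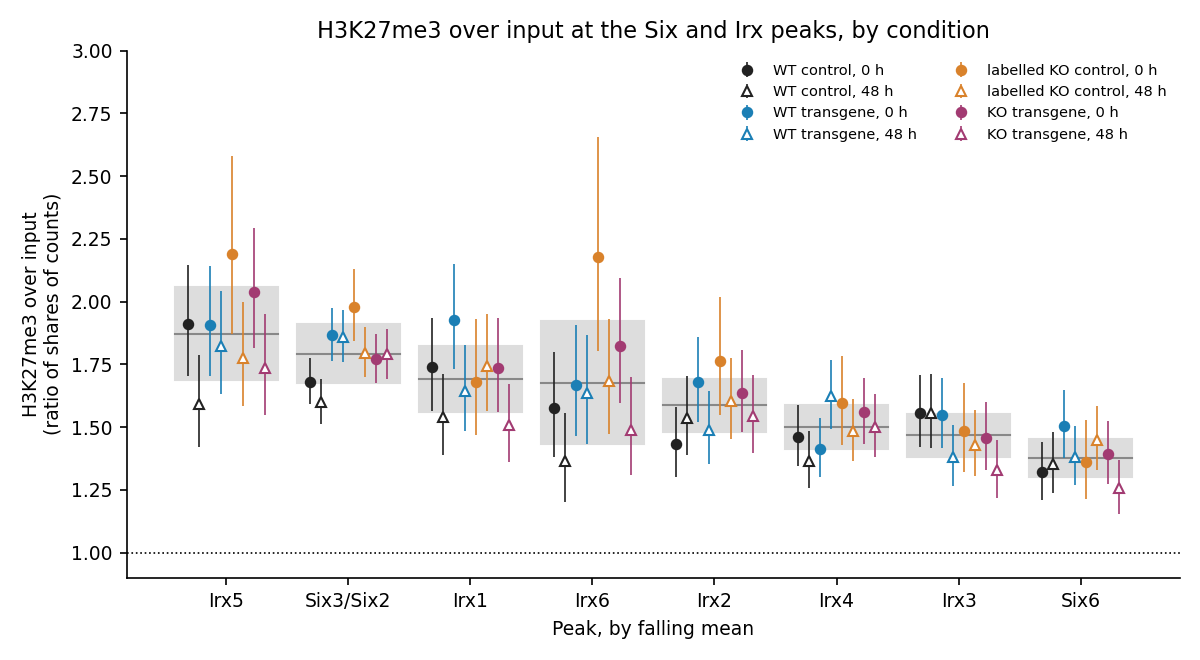
H3K27me3 over input (ratio of shares of counts, y axis) for each Six-family and Irx peak in the 8 conditions; points carry 95% counting intervals, grey lines and boxes are the mean and SD over conditions, and the dotted line is the average over all peaks. Every point lies above 1, from 1.26 (Six6) to 2.19 (Irx5).

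In order of the mean over the 8 conditions (SD, n = 8), Irx5 stood at 1.87 ± 0.185, Six3/Six2 at 1.79 ± 0.117, Irx1 at 1.69 ± 0.132, Irx6 at 1.68 ± 0.245, Irx2 at 1.59 ± 0.107, Irx4 at 1.50 ± 0.0882, Irx3 at 1.47 ± 0.0860 and Six6 at 1.38 ± 0.0761. No 2 neighbours in this order differed by more than the SD of their difference, the closest being Irx3 and Six6 with a mean difference of 0.0906 ± 0.0921. The conditions are single libraries of different lines and times, so this SD holds both. Irx6 was highest in the line labelled KO control at 0 h, where its input rested on 123 reads, and its mean without that condition was 1.61 ± 0.148 (n = 7). Per length, the order was partly another: H3K27me3 in counts per library total and kb (CPM per kb) was 3.57 ± 0.224 at Irx5 and 3.57 ± 0.180 at Six3/Six2, 3.01 ± 0.0962 at Six6 and lowest at Irx3 (2.81 ± 0.101). Six6 had the highest input of the 8 on the same scale, 2.19 ± 0.0800.

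H3K27me3 was tested against input in edgeR's quasi-likelihood fit over all peaks, with condition as a block. Both were scaled to total counts within peaks. Here and below, higher or lower than input therefore means relative to the average over all peaks. All 8 peaks were higher than input, where 7.76% of all peaks tested were. The log2 differences ran from 0.46 ± 0.03 (SE) at Six6, with an adjusted p of 1.44e-39, to 0.89 ± 0.03 at Irx5, with an adjusted p of 2.97e-72. Their median was 0.68 beside -0.21 over all peaks. Scaling by TMM in place of total counts shifted the members' median to 0.85, with all 8 still called. As gene regions, all 8 passed as well, beside 28.7% of all regions. The members were chosen with the mark at these genes already known, so these values describe its size. All 8 peaks also lie in the class of 3548 peaks (3.45%) of at least 20 kb, whose median ratio over input was 1.13, and 5 of the 8 exceeded 1.51, the 90th percentile of that class.

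**Figure D2:**
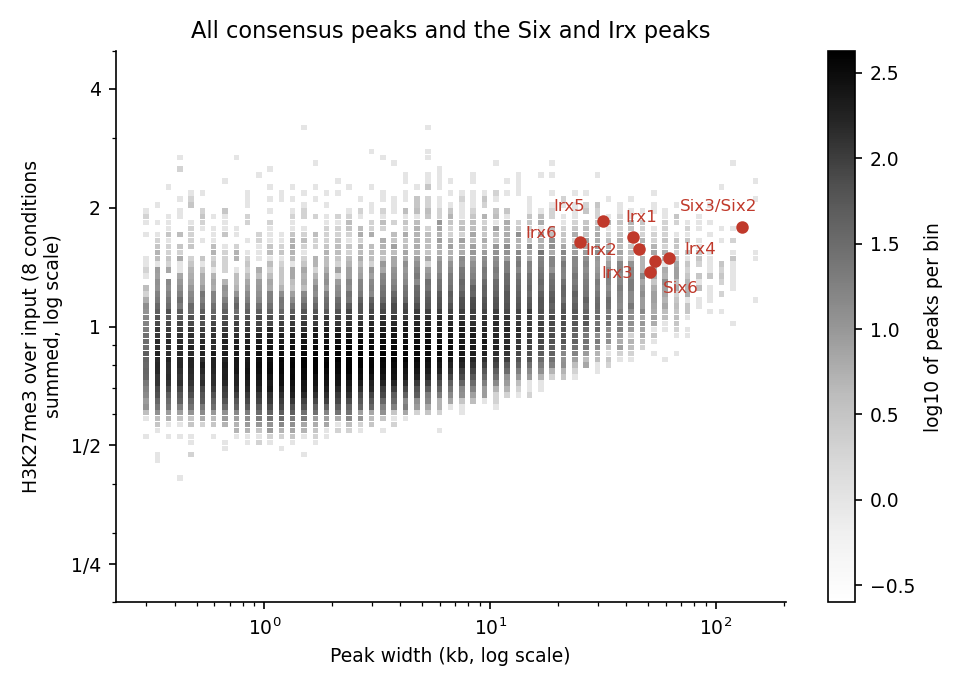
Peak width (kb, log scale, x axis) against H3K27me3 over input (8 conditions summed, log scale, y axis) for all consensus peaks, shaded by the number per bin, with the 8 Six-family and Irx peaks in red. The 8 lie at the right, between 25.0 and 130.7 kb, and above the median ratio of peaks of at least 20 kb, 1.13.

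Within the Iroquois clusters the signal was highest in blocks at the genes. The IrxA cluster spans 1354.0 kb from the left edge of the Irx1 peak to the right edge of the Irx4 peak, and between its 3 gene peaks lay 95 other consensus peaks. The gene peaks together stood at 1.57 ± 0.0684 over input (SD, n = 8 conditions) and the peaks between them at 1.01 ± 0.0215. The lowest condition of the gene peaks, 1.46, was above the highest of the others, 1.05. The IrxB cluster spans 898.2 kb, with 56 peaks between its 3 gene peaks. There the gene peaks stood at 1.63 ± 0.112 and the peaks between at 1.02 ± 0.0247, again with no overlap between the conditions (1.48 at the lowest against 1.06 at the highest).

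The 3 gene peaks of IrxA made up 11.2% of the cluster's length, of which all its peaks covered 53.6%. They held 28.7% ± 0.975 of the H3K27me3 counts in the cluster's peaks, against 20.4% ± 0.228 of the input counts. Those of IrxB made up 12.3% of the length, of which all peaks covered 70.1%, and held 24.8% ± 0.797 against 17.2% ± 0.648. Counts were taken within peaks alone, so the share to set beside them is that of input and not that of length. No peak between the genes reached the lowest gene peak of its cluster. The nearest were a peak of 10.9 kb in IrxA, 346.9 kb from the left edge, at 1.43, and a peak of 9.17 kb in IrxB, 848.2 kb from the left edge, at 1.34. Broad peaks came next. In IrxA a peak of 48.4 kb, wider than those of Irx1 and Irx2, stood at 1.39. In IrxB a peak of 41.95 kb, wider than those of Irx5 and Irx6, stood at 1.32. Of the peaks between the genes, 6 in IrxA and 7 in IrxB were higher than input in the same fit, beside 7.76% of all peaks. By that fit 24 and 15 were lower, beside 36.0% of all peaks, where lower means below the average over all peaks.

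**Figure D3:**
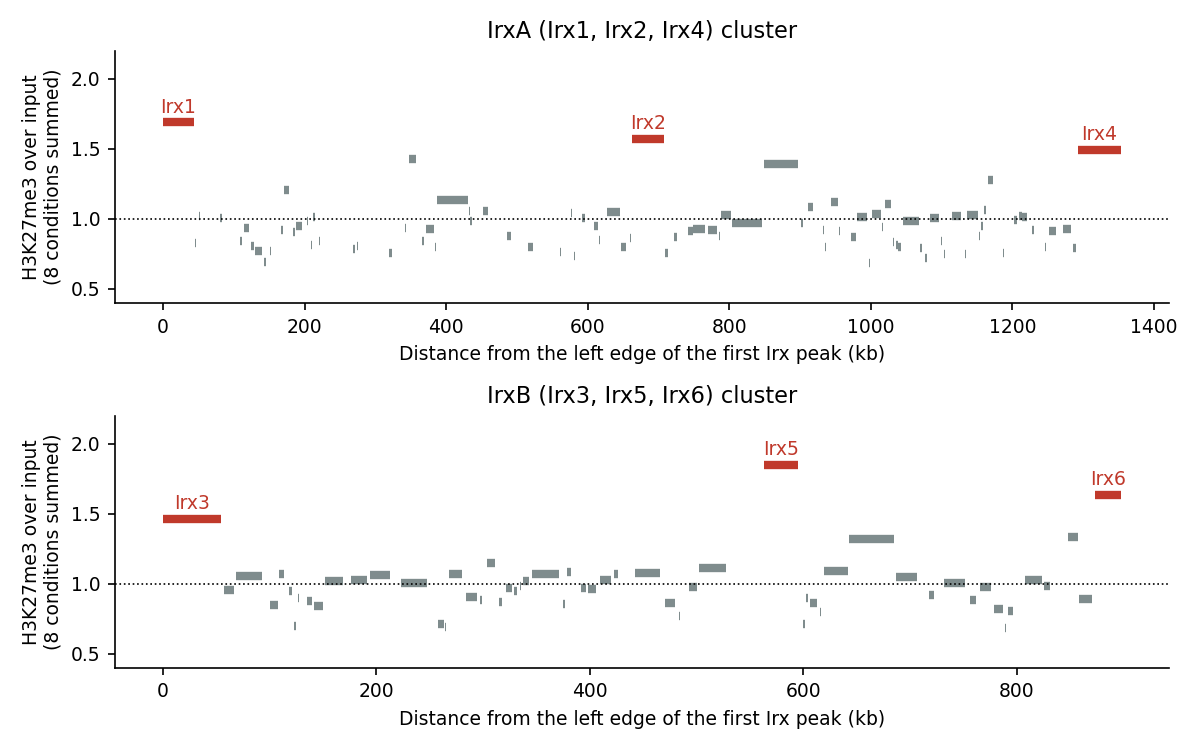
H3K27me3 over input (8 conditions summed, y axis) along the IrxA and IrxB clusters, by distance in kb from the left edge of the first Irx peak; each bar is a consensus peak drawn to its width, in red for the Irx peaks. The red bars lie above all grey bars of their cluster, the highest of which are at 1.43 and 1.34.

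The peaks next to all 8 members were read as well. The 16 nearest consensus peaks, 1 on each side of each member, had mean ratios of 0.728 to 1.19 (median 0.948), and all 16 were below their member's mean. In 15 of them this was so in all 8 conditions; the exception was the 1.20 kb peak left of Irx1. The gaps to these peaks ran from 1.24 to 43.0 kb (median 1.87), and their median width was 4.28 kb. A called peak ends where the signal falls. Lower neighbours therefore follow largely from the peak calling and are no separate support.

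The Iroquois clusters arose by duplication, and Irx1, Irx2 and Irx4 have Irx3, Irx5 and Irx6 as their closest counterparts in the other cluster. Irx2 was lower than Irx5 in 8 of 8 conditions, with a mean difference in the ratio over input of -0.286 ± 0.147 (SD). Irx1 was higher than Irx3 in 7 of 8, by 0.222 ± 0.118, and Irx4 was lower than Irx6 in 6 of 8 (mean difference -0.18 ± 0.199). Exact two-sided sign-flip permutation tests over the 8 conditions, adjusted over these 3 pairs, gave p = 0.0234 for the first and second pair and 0.0312 for Irx4 and Irx6. They count both times of a line as separate. Over the 4 line means each pair differed in 1 direction in all lines, with an exact p of 0.125, the smallest that 4 lines allow. In each pair the wider peak had the lower ratio: 45.8 against 31.8 kb for Irx2 and Irx5, 53.8 against 43.1 kb for Irx3 and Irx1, and 62.3 against 25.0 kb for Irx4 and Irx6.

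The first comparison in time set 48 h of doxycycline against 0 h in the 4 lines. No library at 48 h is labelled as without doxycycline. The treatment therefore cannot be told apart from time in culture or from the handling of the libraries. H3K27me3 fell at Irx5 and at the Six3/Six2 peak, and no member peak rose. The level per length in CPM per kb, scaled by TMM (edgeR's trimmed mean of M-values), went at Irx5 from 3.53 to 3.17, from 3.87 to 3.62, from 3.75 to 3.43 and from 3.82 to 3.37, in the order of lines given above. At Six3/Six2 it went from 3.44 to 3.19, from 3.73 to 3.54, from 3.96 to 3.61 and from 3.60 to 3.50. Each line was lower at 48 h at both peaks. The 48 h values overlapped the 0 h values of other lines at both.

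In edgeR's quasi-likelihood fit over all peaks, with line as a block, the log2 change was -0.14 ± 0.03 (SE) at Irx5, with an adjusted p of 0.00232, and -0.09 ± 0.02 at Six3/Six2, with an adjusted p of 4.75e-05. These 2 of 8 stand beside 0.102% of all peaks called lower. Adjusted over 18362 gene regions, 5 of 8 fell, beside 2.13% of regions: the same 2 and Irx1 (-0.10 ± 0.03, adjusted p = 0.0212), Irx2 (-0.09 ± 0.03, adjusted p = 0.0276) and Irx6 (-0.11 ± 0.03, adjusted p = 0.0429). Irx3 had a log2 change of -0.04 ± 0.03, Irx4 of -0.04 ± 0.02 and Six6 of -0.01 ± 0.02, and none of the 3 passed. The input libraries of the same peaks had a median log2 change of 0.05, and 0 of 8 were called by edgeR (0 also at an unadjusted p under 0.05), as were 0.0% of all peaks. The dispersion over all peaks was 9.77e-05, the same as in the fits of induction and of single lines below, so it may be a lower limit. These errors therefore follow read counts. The fit drew on 1860 prior degrees of freedom from all peaks, beside 3 residual ones among libraries.

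Line by line, 29 of the 32 ratios of 48 h over 0 h lay below 1. The exceptions were Six6 in the line labelled KO control at 1.04, Irx4 in WT transgene at 1.02 and Irx3 in KO transgene at 1.03, and the 95% counting intervals of all 3 included 1. The median over the 8 peaks was 0.944, 0.943, 0.941 and 0.967 in the same order of lines. Irx5 was lowest in KO transgene, at 0.881 (0.821 to 0.946), and highest in WT transgene, at 0.937 (0.873 to 1.005). The intervals cover counting error only.

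**Figure D4:**
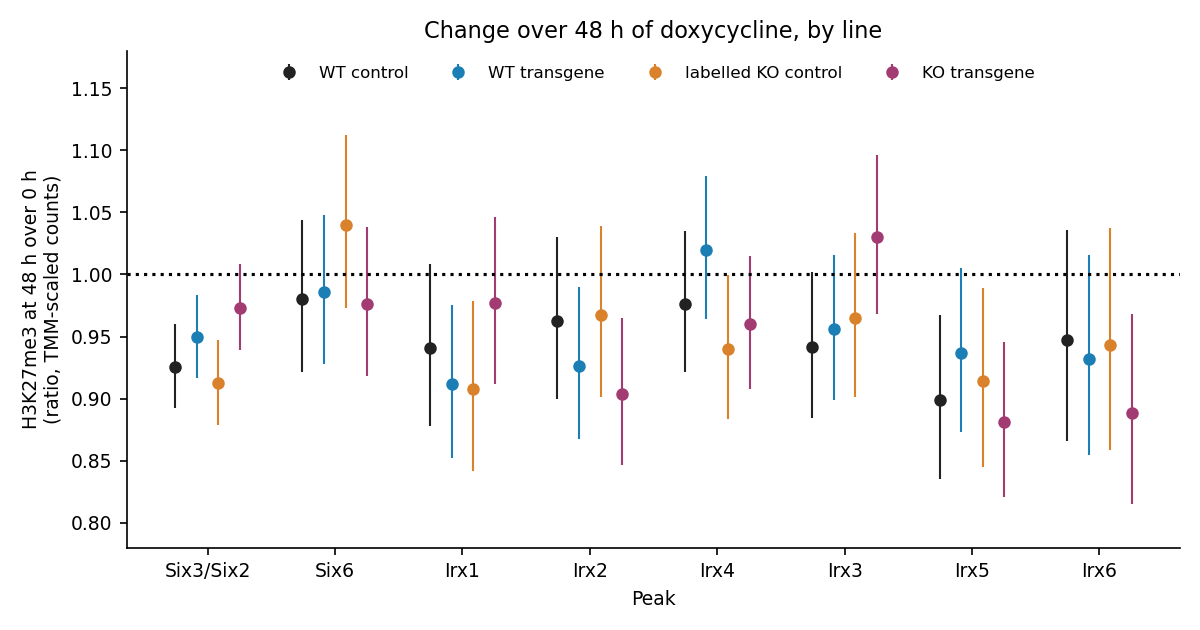
Ratio of H3K27me3 at 48 h over 0 h (TMM-scaled counts, y axis) for each Six-family and Irx peak in the 4 lines, with 95% counting intervals; the dotted line marks no change. Of the 32 points, 29 lie below 1, those of Irx5 between 0.881 and 0.937.

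Other peaks with as high a mark moved the same way. Among 1458 peaks within the members' range of ratio over input and with a mean of at least 200 counts, the median log2 change was -0.05, 76.2% were below 0 and 2.88% were called lower. The members' median was -0.09. With an offset for each library that follows the ratio over input, 0 of the 8 member peaks and 0 regions were called, and the value was 0.02 at Six6. With the input of the same condition as an offset, or without the line block, 0 were called, and DESeq2 called 0 peaks and 1 region. The log2 change at Irx5 was -0.22 ± 0.06 (SE) with the input offset, -0.14 ± 0.05 without the block and -0.14 ± 0.05 with DESeq2, so the value was no smaller and its error larger. At Six3/Six2 it was -0.06 ± 0.04, -0.09 ± 0.05 and -0.09 ± 0.03. With the offset following the ratio over input the values were smaller, -0.07 ± 0.03 at Irx5 and -0.02 ± 0.02 at Six3/Six2. Irx5 was no longer called among peaks when either library of WT control or of KO transgene was left out, and 2 to 3 regions were called when any 1 library was left out. Whether the change lay in the cells or in the libraries was not tested. Fewer marked cells and less of the mark per cell cannot be told apart here either.

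The question of the inducible transgene is whether the change over 48 h differed in the lines that carry it. No member was called: 0 of 8 peaks passed by edgeR, where 0.00583% of all peaks did in either direction. With so few calls over all peaks, 0 of 8 is no result about the members and does not show that a difference is absent. The log2 differences, transgene lines minus the others, ran from -0.08 ± 0.05 at Irx2 to 0.06 ± 0.03 at Six3/Six2, the 1 peak with an unadjusted p under 0.05 (adjusted p = 0.998). The comparison had 2 residual degrees of freedom, and its dispersion was also 9.77e-05, so its errors follow read counts. It sets the line labelled KO control, whose input holds the Firre sequence in excess, among the lines without transgene. Limma-voom called 1 member peak, Six3/Six2 (0.06 ± 0.01, adjusted p = 0.016).

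Lines labelled knockout were compared with wild-type lines, and lines labelled with the transgene with the others, in a fit of background, transgene and time. The line labelled KO control entered by its label, as knockout and without transgene, although its Firre input goes against that label. By these labels, for knockout against wild type 0 of 8 member peaks were called, where 4.42% of all peaks were, with log2 differences of -0.02 ± 0.04 (Irx1) to 0.08 ± 0.04 (Six3/Six2, the 1 peak with an unadjusted p under 0.05). Limma-voom called 1. For transgene against none 0 of 8 were called, where 0.0748% of all peaks were, and 0 had an unadjusted p under 0.05. The values were above 0 at all 8, from 0.02 ± 0.04 at Six3/Six2 to 0.08 ± 0.04 at Irx5.

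Single lines were then set against each other, a choice made after the data were seen. WT control had the lowest mean of the 2 times of all 4 lines at each of the 8 peaks. At 0 h Six3/Six2 stood at 3.44 CPM per kb in WT control and at 3.60 to 3.96 in the other 3 lines, and at 48 h at 3.19 against 3.50 to 3.61. Within a time there were 2 exceptions, both at 0 h: Irx3 stood at 2.81 in WT control and 2.73 in KO transgene, and Irx1 at 2.86 and 2.85. The highest line was WT transgene at Six6, Irx1, Irx3, Irx5 and Irx6, and the line labelled KO control at Six3/Six2, Irx2 and Irx4.

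**Figure D5:**
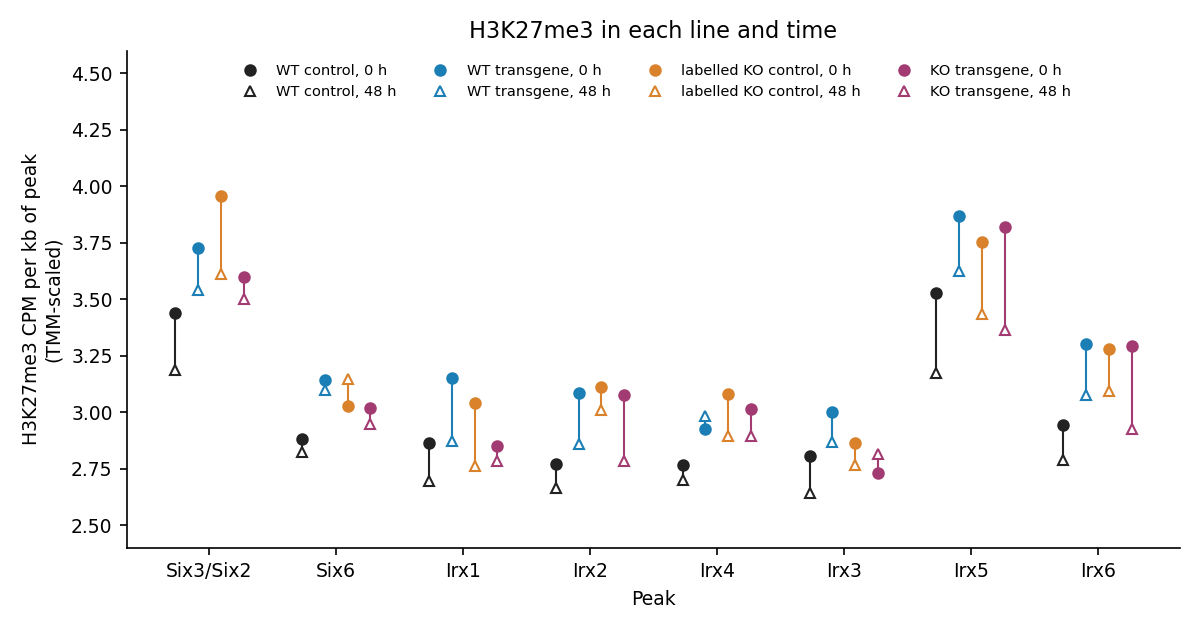
H3K27me3 in CPM per kb of peak (TMM-scaled, y axis, which does not start at 0) for each Six-family and Irx peak in the 4 lines at 0 h (filled circles) and 48 h (open triangles), joined within a line. WT control, in black, is lowest at each peak in the mean of the 2 times, at 3.44 and 3.19 for Six3/Six2.

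In a fit of line and time, the 2 times of a line stood in for replicates. The dispersion was again 9.77e-05, so the p-values rest mostly on counting error and do not speak beyond these libraries. By edgeR, WT transgene was higher than WT control at Six3/Six2 (log2 0.13 ± 0.02, adjusted p = 1.85e-06) and Irx5 (0.16 ± 0.04, adjusted p = 0.0246). These 2 of 8 stand beside 0.237% of all peaks called higher, and all 8 values were above 0, from 0.11 to 0.16. Adjusted over gene regions, 8 of 8 were called higher, beside 4.46% of all regions. The line labelled KO control was higher than WT control at 5 of 8 peaks, beside 3.69% of all peaks: Six3/Six2 (0.19 ± 0.02), Irx2 (0.17 ± 0.04), Irx6 (0.15 ± 0.05), Irx4 (0.13 ± 0.03) and Six6 (0.12 ± 0.04). The count over gene regions was also 5, beside 15.0% of all regions. KO transgene was lower than the line labelled KO control at Six3/Six2 alone among the members (-0.09 ± 0.02, adjusted p = 0.00913), where 0.683% of peaks were lower, and its region was called as well, beside 5.7% of regions. Between KO transgene and WT transgene 0 of 8 were called by edgeR, DESeq2 and limma-voom, beside 1.74% of peaks in either direction, with 2 at an unadjusted p under 0.05. The same contrasts called 0 of 8 in input by edgeR, where they called 0.0141%, 1.36%, 0.0293% and 0.432% of all peaks in the order given.

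The difference of WT transgene to WT control minus that of KO transgene to the line labelled KO control was 0.22 ± 0.03 at Six3/Six2 (log2, adjusted p = 1.36e-09 by edgeR), the 1 member called, beside 0.397% of peaks called higher. Over gene regions 3 of 8 were called, beside 5.68% of regions. It was above 0 at all 8 members. These contrasts share libraries and are given side by side. Peaks of like ratio moved in the same direction: their median ratio of WT transgene over WT control was 1.07 at both times, beside 1.09 and 1.10 over the members, and of the line labelled KO control over WT control 1.08 and 1.07, beside 1.09 and 1.10. With an offset following the ratio over input, 0 member peaks were called in each of these contrasts. With total counts in place of TMM, 1 was called in each of the 2 against WT control and 0 between KO transgene and the line labelled KO control. DESeq2 called 0, 1 and 0 in the same order. Leaving out 1 library at a time gave 0 to 3, 1 to 5 and 0 to 1 calls, with Six3/Six2 against WT control lost in WT transgene without WT control at 48 h.

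Related genes were read from lists in the same way, by counts and medians. Among genes that act with or are related to the members, Mkx, a relative of the Iroquois genes that acts in tendon, stood at 1.50 ± 0.247 over input (SD, n = 8), within the range of the members' means. Eya4, a cofactor of Six-family proteins, stood at 1.03 ± 0.0659 and Dach1, another protein of that network, at 0.976 ± 0.0461. Of 11 TALE relatives, 7 had a peak, with a median of 1.03, from Pbx3 at 0.893 ± 0.0499 to Meis3 at 1.57 ± 0.121, and 3 were higher than input and 2 lower, beside 37.5% of all regions lower.

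Of 19 genes near the members, 12 had a peak, with a median ratio of 0.993. Crnde and Six3os1 share the peaks of Irx5 and Six3/Six2. Fto, whose introns hold enhancers known to contact Irx3, stood at 0.825 ± 0.0851, and Rpgrip1l beside it was lowest at 0.736 ± 0.103. Homeobox genes outside the families were like the members in level. The 7 regions of the Dlx and Msx genes, which act in limbs, forebrain and teeth, had a median of 1.70, all higher than input and 2 lower over 48 h. The 12 regions of the LIM homeobox genes had a median of 1.67, all higher than input and 6 lower over 48 h. The members' regions had a median of 1.63, and 5 of 8 were lower over 48 h. No difference between these lists was tested.

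Outside the members, 5 gene regions came nearest to the median profile of the members' log2 ratios over the 8 conditions, of 11371 regions compared, by Euclidean distance. They were Grin1 (0.12), Tbx5 (0.13), Gm19835 (0.14), Gdnf (0.14) and the shared region of Gm42017 and Gm5563 (0.15), beside a median distance of 1.91 over all regions. The nearest member, Irx2, was at 0.20 and the farthest, Six6, at 0.68.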

How the data were processed

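H3K27me3 and input were measured in 16 libraries, 1 per line, time and assay. The authors deposited raw counts per consensus peak and a peak list with a caller score, the fold over control (a ratio) and −log10 p and q values. Build mm10, featureCounts, MACS2 2.2.71, DESeq2 1.26.0 and BWA 0.7.17-r1188 are listed in the submitters' processing notes without roles, and the sources used here do not give which libraries made the consensus. The deposited counts were tested with edgeR 4.0.16 (R 4.3.3), quasi-likelihood, with Benjamini-Hochberg adjustment at 0.05 over all peaks or 18362 gene regions (the peaks of a gene span extended by 2000 bases, summed). Library sizes were counts within peaks, TMM-scaled except against input, so a change shared by most peaks is not visible. DESeq2 1.42.0 and limma-voom 3.58.1 were alternatives, beside other scalings, filters, windows, offsets and left-out libraries. Ratios carry 95% exact binomial intervals. The scripts were tested on simulated data. All 9 members are named, and at most 4 genes of each related list (the 2 highest and 2 lowest over input) or the nearest by profile; genes of other lists named beside them were chosen after their values were seen. The members and lists were chosen with earlier results of these data known. Counts over the list of genes related to the members are not reported here. Peak starts are as deposited.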

Additional observations from a re-analysis of the deposited data

Results flagged for a closer look

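Of 32 checks for a value standing apart among the 8 conditions or 4 lines, 3 were met, by Dixon's gap over range at its 95% critical value, which chance passes in about 1 in 20 groups. Six6 had a log2 change over time of 0.057 in the line labelled KO control, against values below 0 in the other 3 lines. Input at Irx5 was lowest in the line labelled KO control at 0 h, at 1.68 CPM per kb (178 reads), and input at Irx6 in the same library at 1.47 (123 reads). That library has the lowest input total, and both ratios over input were highest there. Its part in them was not tested further than by leaving it out, which gave 1.83 ± 0.144 for Irx5 and 1.61 ± 0.148 for Irx6 (SD, n = 7).

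The difference that goes with the transgene was not the same in the wild-type lines and those labelled knockout at Six3/Six2: the log2 difference between the 2 was 0.22 ± 0.03 (adjusted p = 1.36e-09 by edgeR). WT transgene was above WT control there and KO transgene below the line labelled KO control. The Firre input of that last line goes against its label.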

How the results depend on the processing

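All 8 peaks were called higher than input under every alternative run. For the change over 48 h (2 peaks, 5 regions), DESeq2 called 0 peaks and 1 region, and the input offset, the offset following the ratio over input and the fit without line block each called 0 of both. Limma-voom called 4 peaks. Leaving out 1 library at a time gave 1 to 2 peaks, 1 without either library of WT control or of KO transgene, and 2 to 3 regions. For the induction and the knockout against wild type (0 peaks each), limma-voom called 1 each, and the latter gave 0 to 1 regions as libraries were left out, 1 without KO transgene at 0 h.

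In contrasts of single lines, WT transgene against WT control (2) gave 0 with DESeq2 and both offsets, 6 with limma-voom, 1 with total counts and 0 to 3 without 1 library (0 without WT control at 48 h, 1 without WT control at 0 h or either WT transgene library). The line labelled KO control against WT control (5) gave 1 with DESeq2 and total counts, 2 with the input offset, 0 with the ratio offset and 1 to 5 without 1 library (1 without WT control at 0 h, 2 without WT control or the line itself at 48 h, 3 without the line itself at 0 h or WT transgene at 48 h). KO transgene against the line labelled KO control (1) gave 0 with DESeq2, both offsets and total counts, and 0 to 1 without 1 library (0 without WT control, KO transgene or the line labelled KO control at 0 h). The difference between these contrasts in WT and labelled KO lines (1) gave 0 with both offsets, 3 with limma-voom and with a mean count of at least 50, and 1 to 2 without 1 library (2 without KO transgene or the line labelled KO control at 0 h). The causes were not tested.

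Single peaks that changed sign had log2 values between -0.153 and 0.127, none of them called. For time with the ratio offset they were Six6 at 0.0227 and Irx4 at 0.00505, and Six6 ran from -0.0276 to 0.000479 without 1 library. For induction with the input offset they were Irx1 at -0.153, Irx3 at -0.12 and Irx6 at 0.127, and with the ratio offset Irx5 at -0.00344. Without 1 library, Six6 ran from -0.0859 to 0.0010, Irx1 from -0.0215 to 0.0781 and Irx5 from -0.0419 to 0.0474. For knockout against wild type, Six6 was -0.011 and Irx5 -0.0398 with the ratio offset, and -0.00839 and -0.0146 with total counts. Without 1 library, Six6 ran from -0.0159 to 0.0535, Irx1 from -0.0486 to 0.0169, Irx3 from -0.0446 to 0.0189 and Irx5 from -0.00664 to 0.0489. For the transgene, Irx3 was -0.077 and Irx6 -0.018 with the input offset, and with the ratio offset Six3/Six2 was -0.0258, Irx1 -0.00425 and Irx2 -0.00644. Six3/Six2 ran from -0.014 to 0.0617 without 1 library.

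Replicate numbers gave no pairing, since every group holds 1 library, numbered 1. Libraries were matched by blocks instead. The blocks used were the line (0 h against 48 h) and the condition (H3K27me3 against input). With 1 library per condition, the fits borrow their spread from other lines and times. Input held 123 to 1685 reads per member peak, which limits the precision of the ratios.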
